A study of Homo sapiens with 12 samples.

Results

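Assembled loci without a gene name were described in U87MG, a human glioblastoma cell line. They are loci that the authors' assembly built from reads and that the deposited sheet lists under a locus number with a hyphen where a gene name would stand. Of 55598 loci in the sheet, 2419 carried no name, and the 973 of these whose mean over all libraries reached 1 FPKM are the unnamed loci described here. FPKM counts sequenced fragments relative to transcript length and library size. The loci were chosen by their mean FPKM, so their overall level is given as a description. Of the other 1446, 13 were listed at 0 in every library.

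Cells were kept for 24 h in hypoxia (1% oxygen) with acidosis at pH 6.0, in hypoxia at pH 7.4, in acidosis at pH 6.0, or in normoxia at pH 7.4. Lysates were fractionated by ribosome density, and the monosome (free RNA and RNA carrying a single ribosome), oligosome and polysome fractions were sequenced. Each of the 12 libraries stands alone for its condition and fraction, so no value has an error and no test is reported. These were bulk cultures, in which a change in how many cells hold an RNA and a change in its amount per cell cannot be told apart.

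An mRNA that is being translated carries many ribosomes and sediments with the polysomes. RNA that is not translated, such as most noncoding RNA, intronic or unspliced RNA and RNA held in the nucleus, carries few or none and stays at the top of the gradient. Transcriptome assembly joins overlapping reads into loci, and a locus that matches no annotated gene is left unnamed. Such loci can be unannotated transcripts, extensions of neighbouring genes, intronic or antisense RNA, or short stretches where reads pile up.

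The condition labels were checked on 8 hypoxia-induced genes (CA9, VEGFA, ADM, NDRG1, SLC2A1, LOX, IGFBP3 and ANKRD37). Steady-state mRNA of all 8 was at least 2-fold higher with hypoxia at both pH values, with log2 changes of 1.55 to 5.47. Of 8 glioblastoma and mesenchymal markers, 6 were measurable at 1 locus. VIM and TNC averaged 5979 and 16.6 FPKM, while NES, GFAP, OLIG2 and CHI3L1 stayed under 1 FPKM. The list as a whole was thus not uniformly expressed. Among 9 measurable markers of other cell types, EPCAM (1.26 FPKM) and SNAP25 (4.50 FPKM) passed 1 FPKM. The monosome libraries were the shallowest: at loci above 0 in few libraries, where the commonest value is taken as that of 1 fragment, it was worth 3.02 times (hypoxia with acidosis), 2.42 times (hypoxia), 1.95 times (acidosis) and 1.90 times (normoxia) its worth in the normoxia oligosome library, against 0.766 to 0.983 times in the polysome libraries.

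The unnamed loci were mostly low. Their median mean FPKM was 2.43 (quartiles 1.47 and 5.96), against 7.35 for the 8934 loci that name 1 gene and pass the same minimum. Of the 973, 797 averaged under 10 FPKM, 57 reached 100 and 16 reached 1000. Only 295 were above 0 in all 12 libraries, and 254 were listed at 0 in 6 or more. For 297 loci the mean rested on the highest library alone, since the mean of the other 11 was under 1. A locus chosen through a single high library had to differ between libraries, so the counts of changed loci were repeated for the 676 that kept a mean of 1 without it. Just inside the minimum lay XLOC_049636 and XLOC_022320 (1.00055 and 1.00177 FPKM), and just outside XLOC_010823 and XLOC_025710 (0.999666 and 0.998099 FPKM). XLOC_022320 had 7.99 FPKM in the normoxia monosome library, 2.63 in the acidosis monosome library and under 1 in the other 10.

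A small number of loci held most of the signal. The unnamed loci made up 3.18% (hypoxia, monosome) to 17.6% (normoxia, monosome) of a library's summed FPKM. The 57 loci of at least 100 FPKM supplied 86.1% to 99.2% of that sum, depending on the library.

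The FPKM of most unnamed loci was highest in a monosome library. The highest of the 12 libraries was a monosome library for 876 of 973 (90.03%), an oligosome library for 74 and a polysome library for 23, whereas a monosome library was highest for 31.9% of loci naming 1 gene. Their median monosome FPKM was 4.74 in hypoxia with acidosis, 2.33 in hypoxia, 6.57 in acidosis and 8.49 in normoxia. The median polysome FPKM was 0.177, 0.0474, 0.184 and 0.123 in the same conditions. All 4 polysome medians were below the lowest monosome median. FPKM is relative to each library, so these values do not give the share of an RNA held in each fraction. The authors' RNA factors, which adjust FPKM for RNA concentration, were 1 to 1.54 in the monosome libraries. In the polysome libraries they were 4.04 to 5.37.

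Translation efficiency (TE), as the series defines it, compares the polysome with the monosome fraction, here as a log2 ratio after adding 1 FPKM to each. The median TE of the unnamed loci was -1.96 in hypoxia with acidosis, -1.38 in hypoxia, -2.50 in acidosis and -2.87 in normoxia. Loci naming 1 gene had medians of 0.19, 0.24, 0.26 and 0.32. Named long noncoding RNAs, which mostly are not translated, lay between in 3 conditions (-1.19, -1.13 and -1.16 in hypoxia with acidosis, acidosis and normoxia; 168 loci), and at -1.61, below the unnamed loci, in hypoxia. Because 1 FPKM is added to both fractions, these values understate the imbalance of loci as low as these. With FPKM multiplied by the RNA factors, the unnamed loci had median TE of -1.83, -1.35, -1.99 and -2.83 in hypoxia with acidosis, hypoxia, acidosis and normoxia. Loci naming 1 gene then had 1.51, 1.65, 2.32 and 2.06, so the level of TE depends on the scaling.

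**Figure D1:**
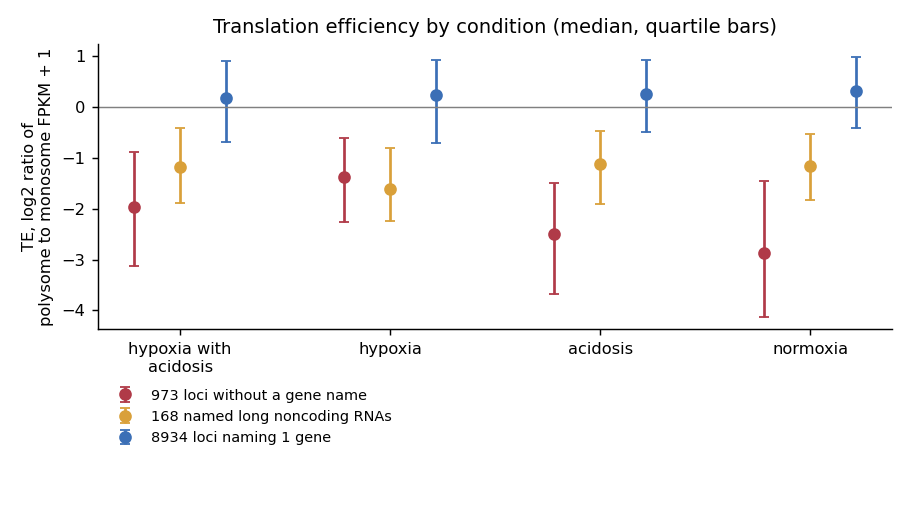
Translation efficiency in the 4 conditions for unnamed loci, named long noncoding RNAs and loci naming 1 gene. Points are medians over loci and bars run between quartiles over loci. The unnamed loci have medians of -1.96, -1.38, -2.50 and -2.87 from left to right, all below the medians of loci naming 1 gene.

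A locus is called monosome-confined here when its monosome FPKM was above 0 and at least 10 times its polysome FPKM. The RNA factors do not enter this ratio, so it is not a ratio of RNA amounts. In hypoxia with acidosis 604 unnamed loci (62.1%) were monosome-confined, against 9.51% of all 12185 compared loci. The count was 598 (61.5%) in hypoxia, where 10.8% of compared loci were confined. It was 710 (73.0%) in acidosis with a background of 9.97%, and 740 (76.1%) in normoxia with a background of 9.3%. Confinement in all 4 conditions was found for 409 unnamed loci (42%) and for 138 loci naming 1 gene (1.54%). Polysome FPKM stayed under 1 in every condition for 675 unnamed loci (69.4%) and for 366 loci naming 1 gene (4.10%).

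Confinement was found at every level. In normoxia it held for 74.2% of the 391 unnamed loci with a mean FPKM under 2, for 78.0% of the 309 between 2 and 5, for 86.1% of the 166 between 5 and 20, for 78.0% of the 50 between 20 and 100 and for 47.4% of the 57 above. Loci naming 1 gene reached no more than 7.88% in any of these ranges. Levels this low leave polysome values near the worth of single fragments, so a polysome value listed at 0 is a limit of detection at this depth. The mean FPKM behind the choice of loci and these ranges includes the monosome libraries. A monosome library was the highest for 876 of the unnamed loci, so part of their confinement may come from the choice. The confined shares were not repeated for loci chosen in other ways. Median TE was: chosen by a median of at least 1 FPKM, unnamed loci had -1.83 in normoxia, against 0.36 for loci naming 1 gene.

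**Figure D2:**
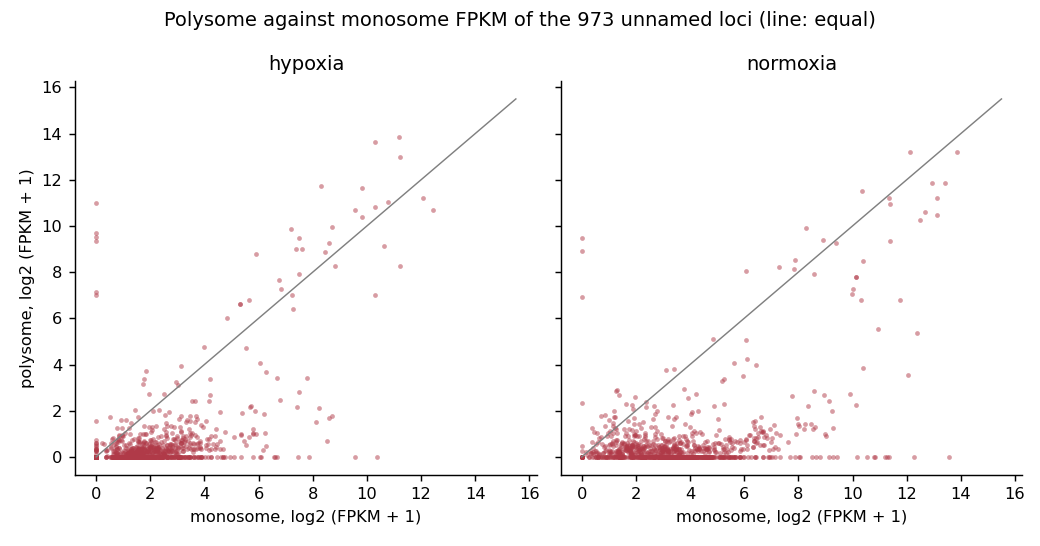
Polysome against monosome level, as log2 of FPKM plus 1, of each unnamed locus in hypoxia and in normoxia, with the line of equal levels. Most points lie below the line near a polysome level of 0 (598 and 740 loci are monosome-confined in hypoxia and in normoxia), and in hypoxia they reach less far to the right.

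The opposite pattern was rare. Polysome FPKM exceeded monosome FPKM for 55 unnamed loci in hypoxia with acidosis (52.5% of compared loci did), for 69 in hypoxia (53.8%), for 40 in acidosis (55.9%) and for 46 in normoxia (57.7%). It did so in all 4 conditions for 11 unnamed loci, against 3313 loci naming 1 gene (37.1%), and in no condition for 862. The 11 are described below by where their locus numbers fall, and the members singled out were chosen after their values were seen.

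Among the 11, XLOC_014762 follows EMP1, an epithelial membrane protein gene, in locus order. Its polysome and monosome values were 16.3 and 1.54 FPKM in hypoxia with acidosis, 9.51 and 2.38 in hypoxia, 12.4 and 3.46 in acidosis, and 6.49 and 1.44 in normoxia. EMP1 itself had 220.1 and 69.6, 153 and 38.3, 131 and 43.2, and 150.4 and 41.1 FPKM in the same fractions and conditions. Both were higher in the polysome than in the monosome fraction in each condition. XLOC_050987 stands between CHMP5, a subunit of the membrane-remodelling ESCRT-III complex, and NFX1, a zinc finger transcription factor. It had 6.999 and 5.20 FPKM in the polysome and monosome fractions in hypoxia with acidosis, 14.2 and 7.74 in hypoxia, 10.8 and 3.26 in acidosis, and 12.7 and 7.57 in normoxia. XLOC_013926 was the single one of the 11 above 10 FPKM on average, and its values are given with the highest loci. The other 8 averaged 1.24 to 8.96 FPKM.

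The sheet gave no chromosome, start or end for any locus, so position could be had only through the order of the locus numbers. Genes that GENCODE release 29 (build GRCh38) places once showed that numbers run by chromosome, then strand, then start: 21116 of 22084 such genes (95.6%) lay between the genes numbered before and after them. By this order 880 unnamed loci fell between placed genes of 1 chromosome and strand, 420 on the plus and 460 on the minus strand, in brackets whose median width was 304 kb (quartiles 134 and 638 kb). The other 93 had no such bracket. Bracketed loci fell on chromosomes 1 to 22 and X, from 8 on chromosome 22 to 64 on chromosome 17. Whether a given locus is intergenic, intronic or antisense to a gene was not read from these brackets. Of the 973, 105 stood next to another unnamed locus in the numbering, forming 55 neighbouring pairs. In 36 of these pairs both loci were monosome-confined in normoxia, in 12 a single one was, and in 7 neither was. No sequence is shown, because a bracket is far wider than a locus.

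The highest locus, XLOC_015737 (mean 12029 FPKM), followed LINC00943 on the plus strand of chromosome 12, between gene starts at 126726270 and 127321355. The second, XLOC_016943 (mean 7367 FPKM), followed LINC00944 on the minus strand of the same region, between 126729787 and 127145072. LINC00943 and LINC00944 are annotated noncoding RNA genes, and the brackets of the 2 unnamed loci overlap on opposite strands. XLOC_015737 had 36706, 17975 and 9821 FPKM in the monosome, oligosome and polysome fractions in hypoxia with acidosis, 2324, 5340.2 and 14802 in hypoxia, 9640.0, 7132 and 5912 in acidosis, and 14967, 10309 and 9423 in normoxia. XLOC_016943 had 21980.1, 8321 and 7166 FPKM in hypoxia with acidosis, 2372, 3303 and 8079 in hypoxia, 7401, 4324 and 3133 in acidosis, and 10875, 7695 and 3757 in normoxia. In FPKM both fell from the monosome to the polysome fraction in 3 conditions and rose in hypoxia alone. FPKM is relative to each library, and the RNA factors in normoxia were 1.49, 3.68 and 5.37 from monosome to polysome. The order of FPKM is therefore not an order of RNA amounts. Over the 12 libraries their log2 levels had a Pearson r of 0.93 and a Spearman rho of 0.97, a description of points that share libraries and depth. RNF139, a ubiquitin ligase, was among the named single-gene loci most like XLOC_015737 (r = 0.86), and RFESD among those most like XLOC_016943 (r = 0.85), each over 12 libraries.

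XLOC_025058 (mean 5278 FPKM) lay on the minus strand of chromosome 17 between COPS3, a subunit of the COP9 signalosome, and the ribosomal protein pseudogene RPL13P12. It had 20607, 3115 and 751 FPKM in the monosome, oligosome and polysome fractions in hypoxia with acidosis, 4343, 1235 and 2359 in hypoxia, 12592, 3101 and 1296 in acidosis, and 8915, 2636 and 2391 in normoxia. The monosome fraction was highest in all 4 conditions. The loci most like it were TBCC, a tubulin folding cofactor (r = 0.95), and YBX1, an RNA-binding protein gene (r = 0.94), over 12 libraries.

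XLOC_013926 (mean 5171 FPKM) lay on the minus strand of chromosome 11, between gene starts at 65653596 and 65714005. Its neighbours are RELA, the p65 subunit of NF-kB, and RNASEH2C, a subunit of ribonuclease H2. Its polysome and monosome values were 7197 and 4582 FPKM in hypoxia with acidosis, 12533 and 1245 in hypoxia, 4635 and 2952 in acidosis, and 9557 and 4423 in normoxia. The polysome value was the higher in each condition, with the widest gap in hypoxia.

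The other 6 of the 10 highest averaged 1949.7 to 4908 FPKM. XLOC_015493 stands before CHST11, a chondroitin sulfotransferase gene, XLOC_021188 before RSL24D1 of ribosome biogenesis, XLOC_015430 after METAP2, a methionine aminopeptidase gene, and XLOC_030007 after KCMF1, a ubiquitin ligase gene. XLOC_054640 and XLOC_039029 have clone names on both sides. In the hypoxia monosome library these 6 had 744 to 5603 FPKM, against 2355 to 8915 FPKM in the normoxia monosome library, and each was lower in hypoxia. With hypoxia and acidosis combined, their monosome values were 4456 to 19738 FPKM.

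**Figure D3:**
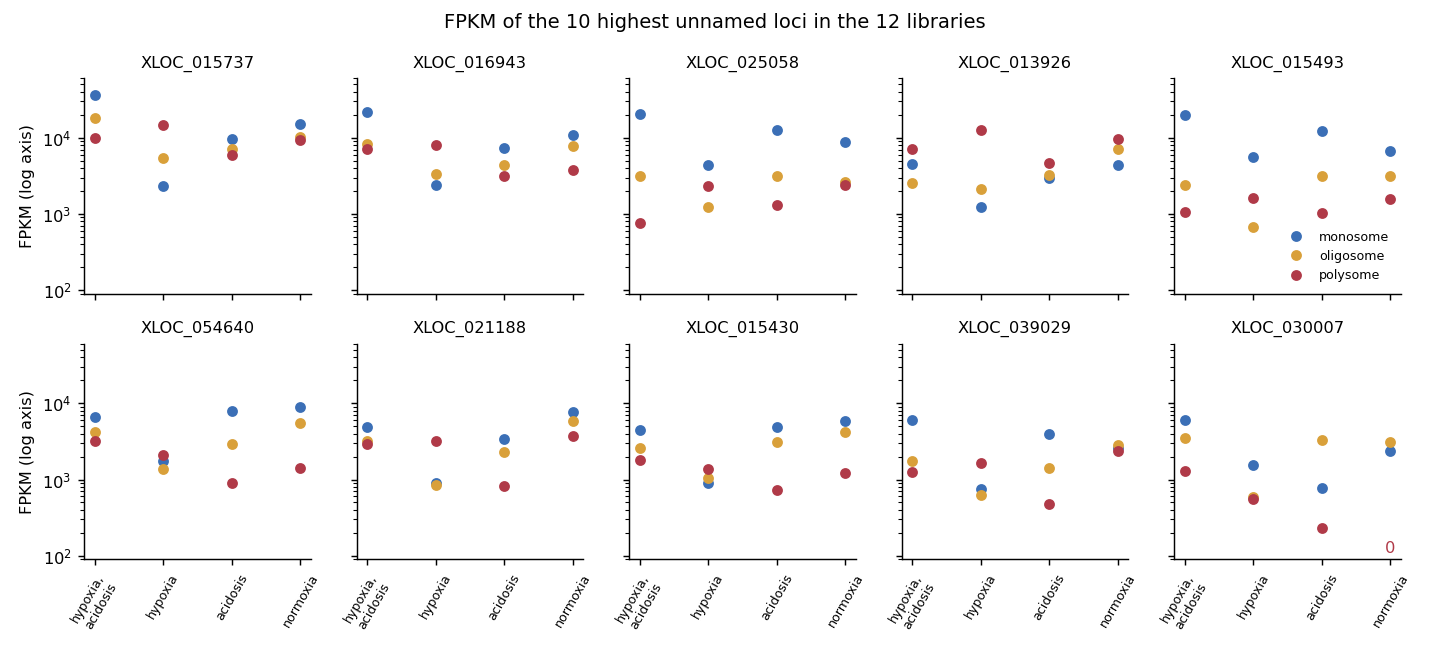
FPKM on a log axis of the 10 unnamed loci of highest mean in each library, by condition and fraction, with a coloured 0 where the value is listed at 0. In each panel the hypoxia monosome point is the lowest monosome point of the 4 conditions, except in XLOC_030007, where acidosis is lower.

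How many fragments stand behind such values could be read in part. The FPKM of 29 of the 57 loci of at least 100 FPKM fell into 10 groups whose values within a library are whole multiples of a common step (relative tolerance 4e-06). In the group of XLOC_009753, XLOC_010488, XLOC_030007 and XLOC_055222 a step was worth 336 FPKM in the normoxia monosome library. XLOC_030007 was 20, 34 and 11 steps in the monosome, oligosome and polysome fractions in hypoxia with acidosis, and 15, 14 and 4 steps in hypoxia. In acidosis it was 4 and 3 steps in the monosome and polysome fractions, and in normoxia 7 and 18 steps in the monosome and oligosome fractions. If a step is 1 fragment or a whole number of fragments, these are lower bounds of the counts, but this could not be checked. A step may also stand for unlike numbers of fragments in different libraries. In the acidosis oligosome library it was 102 FPKM in this group and 281 FPKM in the group of XLOC_035355. Steps are therefore not compared as fragment numbers. A polysome value listed at 0 in normoxia therefore stands beside as few as 7 steps in the monosome fraction.

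The worth of a step did not follow the worth of a fragment at other loci. In that group a step was worth 104 FPKM in the hypoxia monosome library against 336 FPKM in the normoxia monosome library, a quotient of 0.310, where a fragment at other loci gave 1.27. XLOC_030007 thus had 1566 FPKM from 15 steps in hypoxia and 2355 FPKM from 7 steps in normoxia, more steps at the lower FPKM. Among groups of at least 4 loci, a second had a step in every library, with XLOC_035355, and gave a quotient of 0.314. For acidosis against normoxia the 2 groups gave 0.572 and 0.573 where other loci gave 1.03, and for hypoxia with acidosis against hypoxia 2.91 and 2.92 where other loci gave 1.25. Only for hypoxia with acidosis against acidosis, with 1.58 and 1.60, were they close to the 1.55 of other loci. Changes of the 57 highest loci are therefore given as FPKM only, and the counts of loci called for each stress are also given without these 57. Steps were sought only among these 57, so leaving them out need not leave out every locus whose step worth shifted.

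With hypoxia the monosome FPKM of most unnamed loci was lower, and their polysome FPKM stayed near 0. Changes are differences of log2(FPKM + 1) minus the median difference of all 12185 compared loci. The median monosome change of the unnamed loci was -1.71 for hypoxia against normoxia, with 762 of 973 below 0, and -0.38 for hypoxia with acidosis against acidosis, with 609 below 0. Loci naming 1 gene had medians of 0.04 and 0.03. In the polysome fraction the unnamed loci had medians of 0.08 and -0.06, and in the oligosome fraction of -0.21 and -0.05. Both polysome medians and the oligosome median at pH 6.0 come from the centring alone, since the uncentred median change was 0. The 916 loci under 100 FPKM gave monosome medians of -1.68 and -0.44, about as low as over all 973. The FPKM worth of a step in the groups of high loci compared above also differed between monosome libraries. For hypoxia against normoxia the quotients were 0.310 and 0.314, where other loci gave 1.27. For hypoxia with acidosis against acidosis they were 1.58 and 1.60, where other loci gave 1.55. Steps were not sought under 100 FPKM, so the part of step worth in these medians was not tested. The lower monosome FPKM is therefore not read as less RNA. The choice of loci bears on these medians, since the normoxia monosome library was the highest for 404 of the 973. When loci were chosen by a mean of at least 1 FPKM over the 10 libraries outside each pair, the medians were -1.44 (771 loci, 576 below 0) and -0.43 (769 loci, 491 below 0). The 676 loci that kept their mean without the highest library gave -1.69 and -0.30. When loci were chosen by a median of at least 1 FPKM (363 loci), they were -0.45 and 0.023. With the RNA factors applied and no centring the pH 6.0 median was 0.22, where loci naming 1 gene had 0.67.

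The lower values lay mostly among the confined loci. The 740 loci confined in normoxia had median monosome changes of -2.25 at pH 7.4 and -0.78 at pH 6.0, while the other 233 had medians of 0.05 and 0.25. Normoxia values chose the confined loci and enter the pH 7.4 comparison, so its size is a description. The pH 6.0 comparison shares no library with that choice, but its libraries enter the mean by which the unnamed loci were picked. The hypoxia with acidosis monosome library was the highest for 240 unnamed loci, and the acidosis monosome library for 179. A locus low in the normoxia monosome library had to reach that mean through other libraries. The size of the pH 6.0 contrast is therefore a description too, and the split was not repeated for loci picked without these libraries. The 344 loci naming 1 gene that were confined in normoxia had medians of -0.11 and 0.19. Loci naming 1 gene, under 100 FPKM, whose longest annotated transcript is under 300 bases (30 loci) had medians of 0.22 and 0.45. Named small RNAs are not among the 30, and the length is of the annotated transcript. These 30 therefore do not show how short assembled loci behave. The lengths of the unnamed loci are not in the sheet, and the part of length in their change was not tested. The median monosome FPKM of the confined loci was 4.77 in hypoxia with acidosis, 2.10 in hypoxia, 7.89 in acidosis and 10.9 in normoxia.

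**Figure D4:**
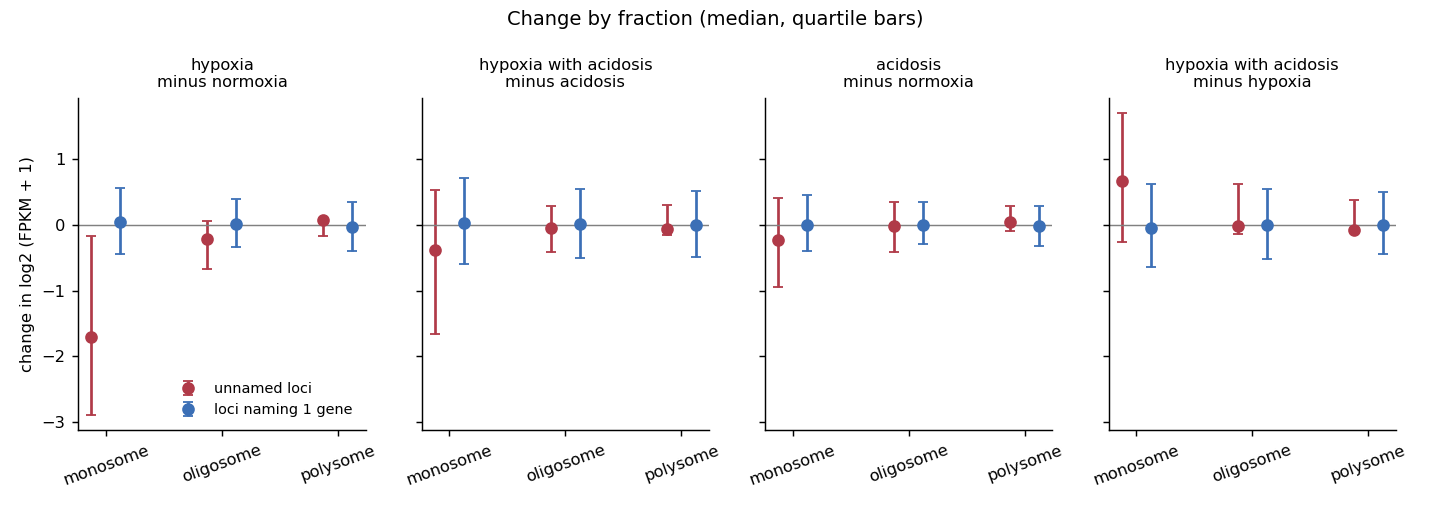
Change in log2 of FPKM plus 1 by fraction for the 4 pairs of conditions, relative to the median of all compared loci. Points are medians over loci and bars run between quartiles, for unnamed loci and for loci naming 1 gene. The monosome medians of the unnamed loci are -1.71, -0.38, -0.23 and 0.66 from left to right, and their other medians lie within 0.21 of 0.

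Steady-state mRNA was taken, after the series' definition, over all 3 fractions: log2 of the mean FPKM plus 1, with fractions weighted by the authors' RNA factors. A locus was called when its centred change passed 2-fold at both pH values and had the same sign in each fraction. A fraction listed at 0 in both libraries of a pair takes its sign from the centring alone. With hypoxia 25 unnamed loci were lower (2.57%; 0.911% of compared loci) and 5 were higher (0.514%; 2.14% of compared loci). Of the 25, 24 were monosome-confined in normoxia. The median change was -0.72 at pH 7.4 and -0.01 at pH 6.0, so the 2 pairs differed in size. Without the 57 highest loci 23 were lower and 5 higher. Without centring 20 were lower (2.06%, against 0.895% of compared loci) and 5 higher (0.514%, against 2.19%). Computed over oligosome and polysome fractions alone, 8 loci were lower, 0.822% against 0.886% of compared loci, so the excess over the background was seen only with the monosome fraction included. With the RNA factors applied and no centring, 54 were lower (5.55%; 3.53% of compared loci) and 12 higher (1.23%; 1.67%).

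The 5 loci that were higher with hypoxia include a neighbour of a hypoxia-induced gene. XLOC_015904 follows SLC2A3, the glucose transporter GLUT3, on the minus strand of chromosome 12, between gene starts at 7919230 and 8058302. It had 83.8, 45.1 and 8.70 FPKM in the monosome, oligosome and polysome fractions in hypoxia with acidosis, 52.3, 19.6 and 3.66 in hypoxia, 24.7, 10.9 and 0.582 in acidosis, and 13.3, 8.39 and 0.712 in normoxia. Each fraction was higher with hypoxia at both pH values. Its log2 change was 1.64 for hypoxia against normoxia and 1.90 for hypoxia with acidosis against acidosis. SLC2A3 itself had 80.3, 96.7 and 98.8 FPKM in hypoxia with acidosis, 33.6, 34.5 and 32.3 in hypoxia, 16.3, 13.4 and 8.69 in acidosis, and 5.61, 7.45 and 6.09 in normoxia. Its log2 changes were 2.26 and 2.83. Both were thus higher with hypoxia, while they sat differently in the gradient: TE was -3.13, -3.52, -4.02 and -3.06 for XLOC_015904 in hypoxia with acidosis, hypoxia, acidosis and normoxia, and 0.30, -0.05, -0.84 and 0.10 for SLC2A3.

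The other 4 were low. XLOC_053776 follows OCRL, an inositol phosphatase gene, on the X chromosome, and had 4.32, 9.68 and 3.11 FPKM in the 3 fractions in hypoxia with acidosis and 5.64, 2.13 and 0.474 in hypoxia. It was listed at 0 in all acidosis libraries, and in normoxia it had 0.159 FPKM in the oligosome fraction and 0 in the others. XLOC_014634 follows KCNA5, a potassium channel gene, and had 3.10, 4.002 and 0.851 FPKM in hypoxia with acidosis, 6.73, 2.03 and 0.197 in hypoxia, and at most 0.305 in any acidosis or normoxia library. XLOC_018091 (log2 changes of 1.01 and 1.25) stands before LINC00404, and XLOC_049910 (1.08 and 1.61) before GFRA2, a receptor of the GDNF family. These 4 averaged 1.04 to 2.13 FPKM.

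**Figure D5:**
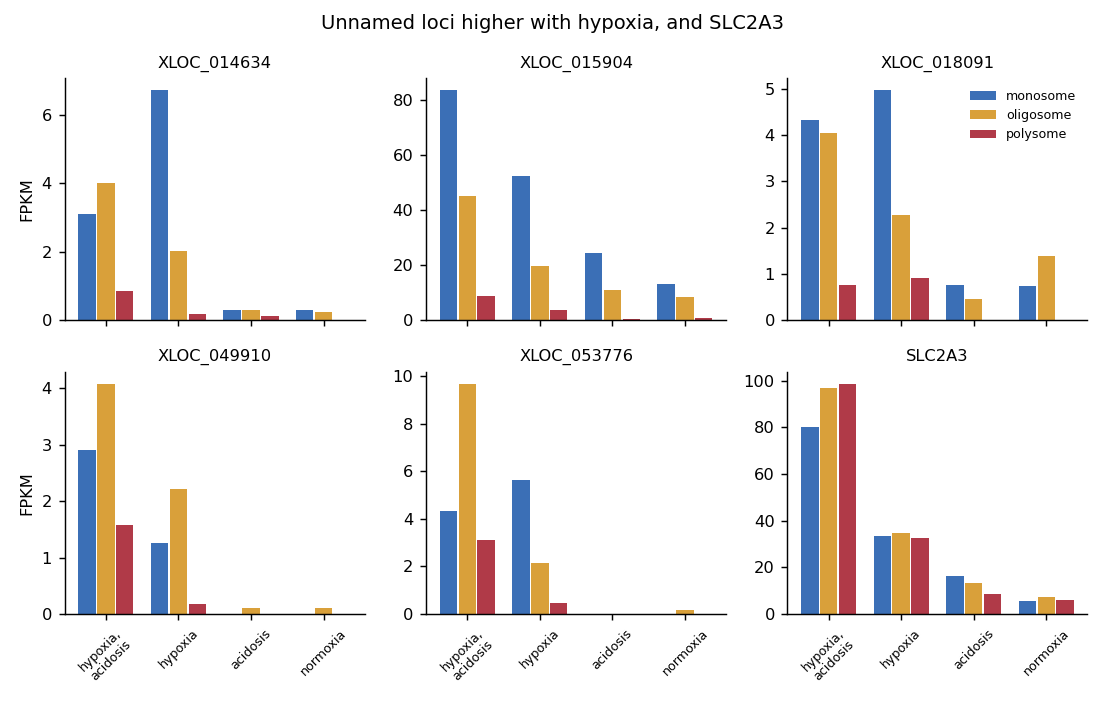
FPKM in the 12 libraries of the 5 unnamed loci called higher in steady-state mRNA with hypoxia, and of SLC2A3, the gene numbered before XLOC_015904. Bars are single libraries by condition and fraction. In hypoxia with acidosis XLOC_015904 reaches 83.8 FPKM in the monosome fraction and SLC2A3 reaches 98.8 FPKM in the polysome fraction.

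Among loci lower with hypoxia, XLOC_043669 had the largest mean change in FPKM. It follows HIST1H2BI, a histone H2B gene, and was listed at 0 in the 3 libraries of hypoxia with acidosis. It had 1309.6, 40.9 and 0 FPKM in the monosome, oligosome and polysome fractions in hypoxia, 1085, 0 and 0 in acidosis, and 3412, 79.0 and 110.2 in normoxia. At pH 6.0 its oligosome and polysome values were thus 0 in both conditions and counted as lower through the centring alone. In steps of its group of 3 loci its monosome value was 26 in hypoxia, 13 in acidosis and 24 in normoxia. The lower FPKM in hypoxia than in normoxia was thus not a lower number of steps. Whether a step is the same number of fragments in these libraries is not known. XLOC_019242, before ARHGAP5-AS1, had 4.28 FPKM in the monosome fraction in hypoxia with acidosis, 4.46 in hypoxia, 69.7 in acidosis and 128 in normoxia. XLOC_007787, on chromosome 1, had 2.64, 7.84, 71.5 and 82.2 FPKM in the monosome fraction of the same conditions. The last 2 had log2 changes of -3.44 and -2.48 at pH 7.4 and of -2.23 and -2.60 at pH 6.0.

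TE was called at 1.5-fold at both pH values. With hypoxia 387 unnamed loci (39.8%) were higher in TE, against 8.79% of compared loci, and 45 (4.62%) were lower, against 10.1%. Of the 387, 374 had a monosome change below 0 in both pairs, 318 had a polysome FPKM under 1 in all 4 conditions, and 98 were listed at 0 in all 4 polysome libraries. A polysome rise of at least 2-fold in both pairs was found for 4 of the 387. A higher TE here is thus mostly a smaller monosome value over a polysome value near 0. Without the 57 highest loci 366 were higher and 44 lower, and among the 676 loci that did not rest on their highest library 248 were higher and 37 lower. Of called unnamed loci 89.6% were higher, and 77.1% (263 higher, 78 lower) with RNA factors and no centring, a setting under which 11.9% of all called loci were higher instead of 46.5%. With oligosome in place of monosome 69 were higher (7.09%; 3.46% of compared loci) and 16 lower (1.64%; 4.4%). Among the 363 loci chosen by their median, 80 were higher (22.0%; 6.95%), and their median TE was -2.13 in hypoxia with acidosis, -1.87 in hypoxia, -1.92 in acidosis and -1.83 in normoxia, so the gap in median TE between hypoxia and normoxia was not seen with that choice.

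The 3 widest rises in TE with hypoxia were of loci listed at 0 in polysome libraries, so no fold is given. XLOC_035355, after RNU12, the gene of the U12 spliceosomal RNA, had 222 FPKM in the polysome and 3667 in the monosome fraction in hypoxia with acidosis, and 129 and 1254 in hypoxia. In acidosis it had 0 and 3876, and in normoxia 0 and 11997, which was 39 steps of 308 FPKM. XLOC_044550, before LINC00326, had 386 and 5891 FPKM in hypoxia with acidosis, 306 and 2377 in hypoxia, 0 and 2952 in acidosis, and 0 and 2580.2 in normoxia. The polysome value of XLOC_035355 was 2 steps in hypoxia with acidosis and 1 step in hypoxia. XLOC_017366 was listed at 0 in the 6 hypoxia libraries, and had 185 FPKM in acidosis and 207 FPKM in normoxia, in the monosome fraction alone. Its normoxia value equals 1 step of 207 FPKM of the group of XLOC_024399 and XLOC_026896. Its acidosis value equals 3 steps of 61.8 FPKM of that group. With 2 loci in the group, a step need not stand for the same number of fragments in both libraries, so the steps are not compared. Its rise in TE may rest on few fragments.

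The loci of largest mean fall in TE with hypoxia were XLOC_037960, XLOC_012587 and XLOC_002560. XLOC_037960, on chromosome 3, had 38.2 FPKM in the polysome and 520.2 in the monosome fraction in hypoxia with acidosis, 0.622 and 366 in hypoxia, 35.6 and 311 in acidosis, and 15.6 and 47.9 in normoxia. Its polysome value was lowest in hypoxia, and its monosome value was lowest in normoxia. XLOC_012587, before C11orf86, had 4.05 and 58.9 FPKM in hypoxia with acidosis, 0.591 and 43.5 in hypoxia, 1.06 and 14.3 in acidosis, and 1.48 and 5.59 in normoxia. Its TE changes were -3.30 at pH 7.4 and -0.64 at pH 6.0, a wide difference in size between the pairs. XLOC_002560 had 0.895 and 5.01 FPKM in the polysome and monosome fractions in hypoxia with acidosis, 3.12 and 1.68 in hypoxia, 2.12 and 0 in acidosis, and 5.43 and 1.58 in normoxia, and no fold is given for it.

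With acidosis the unnamed loci moved little on the whole and in opposite directions in the 2 pairs. The median steady-state change was -0.26 for acidosis against normoxia and 0.36 for hypoxia with acidosis against hypoxia. Called higher were 17 loci (1.75%; 1.21% of compared loci) and lower 3 (0.308%; 0.238%), shares close to the background, and 16 and 2 without the 57 highest loci. XLOC_042693, between OTP and TBCA, a tubulin folding cofactor gene, had 54.9, 3.69 and 2.90 FPKM in the monosome, oligosome and polysome fractions in hypoxia with acidosis, 2.34, 0 and 0 in hypoxia, 82.8, 1.09 and 0.458 in acidosis, and 23.9, 0.590 and 0 in normoxia. XLOC_011476, after IDE, the insulin-degrading enzyme gene, had 71.4, 3.03 and 0.832 FPKM in hypoxia with acidosis, 1.43, 0 and 0.177 in hypoxia, 54.2, 2.57 and 0.650 in acidosis, and 15.6, 0.634 and 0 in normoxia. XLOC_043148, before NR3C1, the glucocorticoid receptor gene, had log2 changes of 2.24 and 1.87. In FPKM all 3 were highest in the monosome or oligosome fraction in each condition. The genes IDE, TBCA and NR3C1 themselves had mean log2 changes of 0.05, 0.58 and 0.25.

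The 3 loci lower with acidosis were XLOC_043669, described above, XLOC_023277 and XLOC_028296. Without centring 2 were lower, since XLOC_043669 had 0 FPKM in the polysome fraction in both hypoxia conditions. XLOC_023277 is numbered before MT1G, a metallothionein gene, and had no usable bracket. It had 0.562, 0.209 and 0 FPKM in the 3 fractions in hypoxia with acidosis, 15.9, 0.446 and 0.317 in hypoxia, 28.4, 1.24 and 0.145 in acidosis, and 97.6, 4.54 and 2.29 in normoxia. It was lower with each stress and lowest with both. XLOC_028296 stands before ATP8B3, a phospholipid flippase gene, and had log2 changes of -1.32 and -1.20. ATP8B3 had changes of 0.14 and 0.16.

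In TE, acidosis gave 93 unnamed loci higher (9.56%; 5.73% of compared loci) and 111 lower (11.4%; 6.67%), or 92 and 96 without the 57 highest loci. With the RNA factors applied and no centring there were 153 higher and 83 lower, so the share of higher calls was 45.6% in one setting and 64.8% in the other, and the balance turned round. It also did with 0.1 FPKM added (146 higher, 131 lower). The median TE change was 0.31 for acidosis against normoxia and -0.38 for hypoxia with acidosis against hypoxia. The 3 widest rises, XLOC_036649, XLOC_043994 and XLOC_017080, were listed at 0 in all 4 polysome libraries. Their TE therefore moved with the monosome value alone, which was 0 in hypoxia with acidosis in each and 21.0, 4.05 and 26.1 FPKM in hypoxia. The 3 widest falls, XLOC_033168, XLOC_051914 and XLOC_024949, were listed at 0 in the normoxia monosome library, against 352, 2382 and 1381 FPKM in the acidosis monosome library. These 3 averaged over 300 FPKM and are among the 57 highest.

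Both stresses together, set against normoxia, gave 240 unnamed loci lower in steady-state mRNA (24.7%; 12.5% of compared loci) and 112 higher (11.5%; 11.9%). In TE 525 were higher (54%; 27.8%) and 196 lower (20.1%; 29.8%). This comparison has a single pair and shares its normoxia libraries with the others.

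The extremes of the gradient in normoxia were taken among the loci with at least 10 FPKM over its 3 fractions. The lowest TE belonged to XLOC_035355, XLOC_041750 and XLOC_044550, all with polysome values listed at 0 and monosome values of 11997, 4922 and 2580.2 FPKM. The highest belonged to XLOC_051914, XLOC_012546 and XLOC_033168, all with monosome values listed at 0 and polysome values of 717, 478 and 120.0 FPKM. XLOC_012546 stands before KAT5, a histone acetyltransferase gene, and was listed at 0 in 8 libraries. None of the 3 had a polysome value above its monosome value in all 4 conditions.

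The changes of unnamed loci were at most weakly related to those of the gene next to them in the numbering. For the 205 with a compared single-gene locus just before them, the mean hypoxia change of steady-state mRNA had a Pearson r of 0.26 and a Spearman rho of 0.20 with that of the gene, and for the 204 with one just after, 0.18 and 0.17. For 2341 neighbouring pairs of single-gene loci the values were 0.13 and 0.12. These are correlations across loci measured in the same libraries, and loci are not independent replicates. The mean acidosis change gave 0.01 and -0.01 with the gene before and 0.12 and 0.09 with the gene after. For the single-gene pairs it gave 0.08 and 0.08. In TE with acidosis Pearson r was 0.20 with the gene before and 0.15 with the gene after, and 0.05 for single-gene pairs. With hypoxia the TE values were -0.07, 0.03 and 0.02 in the same order.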

How the data were processed

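RNA of 12 U87MG libraries (4 conditions by 3 gradient fractions, 1 library each) was analysed from 1 deposited table. Per the labels' protocols, library preparation used a KAPA kit that keeps strand. STAR 2.5.0, Cufflinks 2.2.1, bcl2fastq, Cuffnorm and the build GRCh38 stand in the submitters' processing notes without roles. Which annotation and which Cuffnorm normalization were used is not given in the sources used. FPKM per assembled locus are as the authors deposited them. Depth is not given, and fragments were read only as multiples of a step. A second block of the deposited table holds a signal, which per the file headers is FPKM adjusted for RNA concentration. It is FPKM times 1 factor per library; the 12 factors were recovered from it and nothing else of it was used.

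Compared loci had a mean FPKM of at least 1, with named small RNAs left out (12185 loci). Acidosis and hypoxia each have 2 pairs of conditions that share no library, and a call needs both. The pseudocount was 1 FPKM. Calculations used Python 3.11.15, numpy 2.4.6, pandas 2.3.3 and matplotlib 3.10.9, and the calling was tested on simulated data. Named loci were the 10 of highest mean, the 3 of largest mean change each way per effect among those called, the 3 highest and lowest in normoxia TE, and the 2 on each side of the minimum. The members, lists and rules were chosen with earlier results of these data known. Distances to genes had been planned and were replaced by locus order, since the table holds no coordinates. The 2 most similar named loci were sought for each of the 3 highest, and 1 of these is not reported here.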

Additional observations from a re-analysis of the deposited data

Results flagged for a closer look

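Acidosis went with median changes of opposite sign in the unnamed loci at the 2 oxygen levels. In steady-state mRNA the median was -0.26 for acidosis against normoxia and 0.36 for hypoxia with acidosis against hypoxia. In TE it was 0.31 and -0.38, and in the monosome fraction -0.23 and 0.66. The difference between oxygen levels was not tested, since each pair is 1 library against 1. Among the 916 loci under 100 FPKM the monosome medians were -0.22 and 0.59. Loci naming 1 gene had monosome medians of 0.01 and -0.04. Chosen on the 10 libraries outside each pair, the unnamed loci had monosome medians of -0.015 and 0.58, and chosen by a median of at least 1 FPKM they had 0.0061 and 0.70. The FPKM worth of a step in the 2 groups of high loci differed the same way between these monosome libraries, 0.572 and 0.573 for acidosis against normoxia and 2.91 and 2.92 for hypoxia with acidosis against hypoxia, where other loci gave 1.03 and 1.25, and its part in the medians was not tested. All 3 measures use the same monosome libraries, so they are not separate observations.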

How the results depend on the processing

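Across the alternatives run, 79 of 136 values stayed close, 54 moved and 3 medians of the monosome change turned round, and the cause was not tested. No median TE changed sign, while the balance of TE calls with acidosis (93 higher, 111 lower) turned round with 0.1 FPKM added (146 and 131) and with the RNA factors (153 and 83). The values with 1 FPKM added and a minimum mean of 1 are those of the text. With 0.1 FPKM added, acidosis called 45 loci higher and 17 lower in steady-state mRNA and 146 higher in TE, hypoxia called 28 higher and 52 lower in steady-state mRNA, and the median TE was -3.70 in hypoxia with acidosis, -3.26 in hypoxia, -4.71 in acidosis and -5.23 in normoxia. At a minimum mean of 5 FPKM (273 loci), acidosis called 6 higher in steady-state mRNA and 17 higher and 43 lower in TE, hypoxia called 1 higher in steady-state mRNA and 132 higher and 6 lower in TE, the medians were -3.59, -2.50, -4.46 and -5.03 in the same order, and the median monosome change for hypoxia against normoxia was -2.70. With no minimum (2406 loci), TE was higher for 157 and lower for 170 with acidosis and lower for 75 with hypoxia, with medians of -0.45, -0.45, -0.92 and -1.18, and monosome medians of -0.43 for hypoxia against normoxia and 0.0087 for hypoxia with acidosis against hypoxia. Choosing loci by a median of at least 1 gave 29 higher and 42 lower in TE with acidosis, 1 higher and 15 lower in steady-state mRNA and 80 higher and 27 lower in TE with hypoxia, and medians of -2.13, -1.87, -1.92 and -1.83, with monosome medians of -0.45 for hypoxia against normoxia, 0.023 for hypoxia with acidosis against acidosis and 0.0061 for acidosis against normoxia. FPKM multiplied by the RNA factors without centring gave 36 higher and 9 lower in steady-state mRNA and 153 higher in TE with acidosis, and 12 higher and 54 lower in steady-state mRNA and 78 lower in TE with hypoxia, with a monosome median of 0.22 for hypoxia with acidosis against acidosis. Under that scaling the median of all compared loci itself was -0.38 in steady-state mRNA and -0.39 in TE for hypoxia against normoxia, -0.32 and -0.73 for hypoxia with acidosis against acidosis, and 0.31 in TE for acidosis against normoxia, while the unnamed loci had TE medians of 1.42, 0.05 and 0.76. Without centring of FPKM all calls stayed close, with shifts of at most 0.15. Oligosome and polysome fractions alone gave 8 loci lower in steady-state mRNA with hypoxia. TE as polysome over oligosome gave 24 higher and 44 lower with acidosis, 69 higher and 16 lower with hypoxia, and medians of -0.30, -0.13, -0.41 and -0.54. Further alternatives, and those of the monosome medians, were chosen after seeing the data: loci with a mean of 1 without their highest library gave 57 higher in TE with acidosis and 248 with hypoxia, leaving out the 57 highest loci moved nothing, and choosing loci on libraries outside a pair moved no monosome median. Leaving out loci under 300 bases was not run, since the sheet gives no locus lengths. No paired analysis was possible because each group has 1 library, so no replicate number pairs libraries or can be left out. A model taking the difference between the 2 pairs of a stress as its error was not run. Depth limits all values near 0, above all in the monosome libraries.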
